A study of Mus musculus with 12 samples.

Results

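The genes described here are 38 mouse genes that encode molecular chaperones of the endoplasmic reticulum (ER) and of the heat shock response, with the degradation factors, stress sensors and transcription factors that belong to them. They were taken by gene name from a count table of 54532 genes: 25 work in or for the ER and 13 in the cytosol and mitochondria. The table holds RNA-seq counts of N9 cells, an immortalised mouse microglial line, in 12 libraries, 3 in each of 4 groups. In all groups the cells stood for 18 h in a medium built on glucose-free DMEM with dialysed serum, with 3 mM glucose and 5 mM fructose in its control form. The high fructose with LPS group had this medium with fructose at 15 mM and the high glucose with LPS group had it with glucose at 15 mM. Both were then given lipopolysaccharide (LPS, the bacterial cell wall component that activates microglia) at 1 µg/ml for 6 h. The control medium with LPS group had the control medium and the same LPS, and the control medium group had no LPS. The labels do not say whether 15 mM was a final or an added concentration, and no library had a raised sugar without LPS, so an effect of either sugar without LPS was not measured. Nor is it stated whether the control medium group was kept for the further 6 h, so LPS and any difference in culture time cannot be told apart. The labels also do not state that replicates were grown as independent cultures, and the p-values therefore reflect library-to-library scatter that may be partly or wholly technical.

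Proteins that enter the secretory pathway fold in the ER with the help of the HSP70 chaperone BiP (Hspa5), the HSP90 chaperone GRP94 (Hsp90b1), the lectins calnexin and calreticulin, and disulfide isomerases, and those that fail are sent to the cytosol for degradation. When unfolded proteins build up, the sensors IRE1 (Ern1), ATF6 and PERK start the unfolded protein response, in which spliced XBP1 and cleaved ATF6 raise the transcription of these ER genes. In the cytosol and nucleus, the heat shock factor HSF1 does the same for cytosolic HSP70 and HSP90. In macrophages and microglia the IRE1 and XBP1 branch is also known to be engaged by signalling through Toll-like receptors, which sense LPS.

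Promoters of such genes are known to carry elements through which both responses act, and the matched bases are shown so that members with and without them can be told apart below. Promoter sequences of 300 bases (250 before and 50 after an annotated start) came from RefSeq on build GRCm38.p6 and were found for 29 of the 38 members, 21 of the ER and 8 of the others. The ER stress response element, CCAAT and CCACG with 9 free bases between them, was searched on both strands. It was present in 9 of the 21 ER members and in 0 of the 8 others, against 0.119% of all 32851 promoters. Its matches are printed 5′ to 3′ on the strand that matches, with the fixed bases in capitals and the free spacer in lower case.
Hspa5: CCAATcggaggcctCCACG
Hsp90b1, first match: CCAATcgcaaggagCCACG
Hsp90b1, second match: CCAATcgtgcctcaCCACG
Dnajc3: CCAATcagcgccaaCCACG
Calr: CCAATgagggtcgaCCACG
Canx: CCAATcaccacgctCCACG
Pdia6: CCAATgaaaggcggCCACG
Creld2: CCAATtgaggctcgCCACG
Syvn1: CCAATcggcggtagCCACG
Derl3: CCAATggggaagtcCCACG

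The shorter ER stress response element II, ATTGG and CCACG with 1 free base between them, was found in 0.0365% of all promoters and in 2 members, Dnajb11 and Herpud1. The heat shock element in the form GAA, TTC and GAA, with 2 free bases between neighbours, was found in 0.603% of all promoters and in 3 of the 8 cytosolic and mitochondrial members, Hsph1, Hspd1 and Hspe1, and in 0 of the 21 ER members. Hspd1 and Hspe1 are transcribed away from each other from a shared region and overlap by 112 bases. Their promoter windows cover mostly the same stretch on opposite strands, so their matches are the same bases. The unfolded protein response element TGACGTGG was in 0.676% of all promoters and in 0 members. All these searches covered both strands, and each match to either ER stress response element also holds a CCAAT box, a pentamer that was present in 37.4% of all promoters. A match is a description of the sequence, and no match says only that these letters are not in this window.

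Of the 5 members whose matches are shown next, Herpud1 and Dnajb11 carry the shorter ER element, and Hsph1, Hspd1 and Hspe1 the heat shock element.
Herpud1: ATTGGgCCACG
Dnajb11: ATTGGcCCACG
Hsph1: GAActTTCcaGAA
Hspd1 and Hspe1, first match: GAAccTTCcgGAA
Hspd1 and Hspe1, second match: GAAggTTCtaGAA

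Whole promoters are given for the gene of the central ER chaperone, for both ER genes that carry an element and fell with LPS, and for the heat shock gene with the smallest adjusted p. They read 5′ to 3′ in the direction of transcription, on build GRCm38.p6, with the matches to the elements above in capitals.
Hspa5, chr2:34771840-34772139, plus strand: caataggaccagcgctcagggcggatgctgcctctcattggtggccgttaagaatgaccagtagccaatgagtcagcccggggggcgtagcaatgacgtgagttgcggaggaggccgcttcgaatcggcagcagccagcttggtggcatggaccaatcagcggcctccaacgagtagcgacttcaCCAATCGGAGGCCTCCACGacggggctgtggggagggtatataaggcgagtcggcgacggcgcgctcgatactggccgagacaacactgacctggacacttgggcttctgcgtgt
Dnajc3, chr14:118937682-118937981, plus strand: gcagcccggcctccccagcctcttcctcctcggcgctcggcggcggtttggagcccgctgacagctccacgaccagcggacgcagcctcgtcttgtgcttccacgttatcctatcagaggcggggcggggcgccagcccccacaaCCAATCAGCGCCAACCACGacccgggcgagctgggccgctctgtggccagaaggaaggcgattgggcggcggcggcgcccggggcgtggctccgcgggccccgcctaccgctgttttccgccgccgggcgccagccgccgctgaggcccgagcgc
Herpud1, chr8:94386179-94386478, plus strand: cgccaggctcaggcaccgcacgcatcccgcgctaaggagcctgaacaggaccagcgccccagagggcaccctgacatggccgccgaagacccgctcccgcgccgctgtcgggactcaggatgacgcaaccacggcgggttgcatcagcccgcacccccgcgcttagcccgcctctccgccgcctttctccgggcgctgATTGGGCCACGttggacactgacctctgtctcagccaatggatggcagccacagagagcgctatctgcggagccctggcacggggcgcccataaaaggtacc
Hsph1, chr5:149636266-149636565, minus strand: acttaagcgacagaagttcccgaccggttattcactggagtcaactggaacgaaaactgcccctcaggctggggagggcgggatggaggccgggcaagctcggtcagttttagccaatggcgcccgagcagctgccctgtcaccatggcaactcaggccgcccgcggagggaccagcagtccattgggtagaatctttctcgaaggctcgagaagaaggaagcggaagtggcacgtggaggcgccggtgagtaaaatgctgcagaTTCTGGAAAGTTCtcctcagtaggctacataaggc

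**Figure D1:**
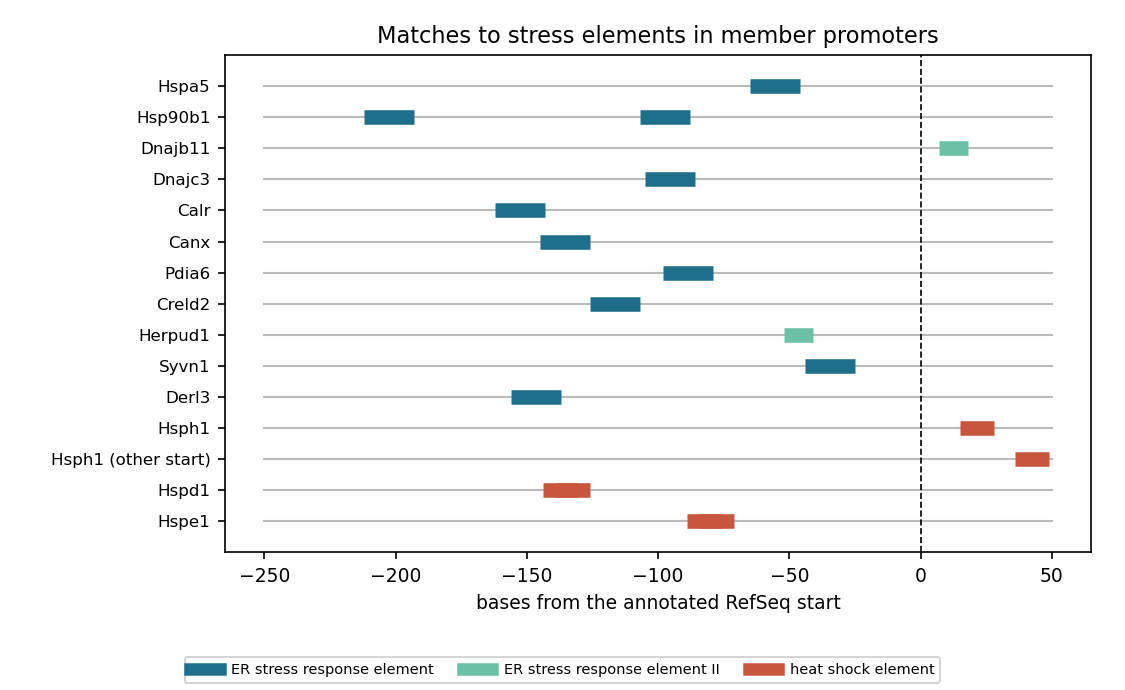
Positions of the matches to 3 stress elements in the 300-base promoters of the members that hold any; the x axis gives bases from the annotated RefSeq start, with the dashed line at 0, and each grey line is a promoter. Matches to the ER stress response element lie before the start in every promoter that holds 1, from position -212 in Hsp90b1 to -44 in Syvn1, while the heat shock element of Hsph1 lies at 15 or 36 after it, for its annotated starts.

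Libraries held 15453776 to 17956772 counts, of which the 38 genes together took 1.96% to 2.14%. Of 13 microglia and macrophage markers, Csf1r, Cd68, Ptprc and Spi1 were present in all libraries, whereas Aif1 had 2 to 9 counts and P2ry12 1 to 6 counts, so these defining markers were close to absent. Levels are given below as CPM, counts scaled to library sizes that were adjusted by the TMM factors of edgeR. Among 20 markers of other cells, Cldn5 and Cd3e were at 0 in all libraries; summed, the 20 had 63.7 to 70.9 CPM in control medium with LPS and 67.6 to 77.0 in control medium. With LPS, 2 of the 6 tested were higher (Tubb3, at a log2 fold change of 1.66 ± 0.14, and Cdh5) and 2 lower (Mbp and Aldh1l1). Of 11 microglia and macrophage markers tested, 4 were higher with LPS, such as Spi1 (log2 fold change 0.58 ± 0.06), and 2 lower, Trem2 (-0.53 ± 0.06) and Adgre1, and the part of these moves in the members' LPS changes was not tested. The LPS marker Tnf averaged 228 ± 4.52 CPM in control medium with LPS and 15.6 ± 1.54 CPM in control medium (SD, n = 3 each). On principal components of all genes, the libraries without LPS stood apart from those with LPS on the first component, which held 46.8% of the variance. Library 1 of high glucose stood apart from libraries 2 and 3 of its group on the second component, where library 1 of high fructose lay farthest out of all 12, and library 2 of high fructose stood apart from all others on the third.

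The members spanned a wide range of levels. Per transcript length, in the authors' length-scaled FPKM (mean of all 12 libraries), the cytosolic HSP90 gene Hsp90ab1 was highest at 1112 FPKM. It was followed by the constitutive cytosolic HSP70 gene Hspa8 at 518 FPKM, mitochondrial HSP70 (Hspa9) at 494 FPKM, calreticulin (Calr) at 493 FPKM and the mitochondrial chaperonin Hspd1 at 482 FPKM. Hspa9 and Calr could not be ordered, since Calr averaged 499 ± 8.75 FPKM and Hspa9 481 ± 7.02 FPKM in control medium (SD, n = 3), the reverse of their order in the overall mean. Hspa8 was not second in every group either: in high glucose with LPS, Hspd1 averaged 509 ± 28.0 FPKM, Hspa9 501 ± 10.1 FPKM and Hspa8 494 ± 29.3 FPKM (SD, n = 3), which lie within their spread. BiP (Hspa5) stood at 352 FPKM and GRP94 (Hsp90b1) at 177 FPKM. The sensors were far lower, with Atf6 at 11.1 FPKM and Ern1 at 4.84 FPKM, and the factor Xbp1 stood at 37.5 FPKM. At the low end were the stress-inducible HSP70 genes, Hspa1b at 5.84 FPKM and Hspa1a at 1 FPKM. Derl3, a derlin of secretory cells, had 0 to 12 counts a library and was the only member too low to test. The spread between libraries of a group was small for most members: its SD on the log2 CPM scale had a median of 0.0619 over the 37 tested and reached from 0.0291 for Hspa9 to 0.165 for Hspa1a.

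The first comparison asked what LPS did to these genes in control medium. LPS moved part of the list by small steps, in opposite directions for the compartments: 6 ER members fell and 1 rose, while 5 cytosolic and mitochondrial members rose and 0 fell. ER members that fell were the co-chaperones Dnajc3 and Sdf2l1, the isomerase Pdia4 and the degradation genes Edem1, Herpud1 and Sel1l, by 0.20 to 0.36 on the log2 scale. Cytosolic and mitochondrial members that rose were Hspa1b, Hsph1, Hsp90aa1, Hsp90ab1 and Hspe1, by 0.13 to 0.48. These are calls at an adjusted p below 0.05 in edgeR's quasi-likelihood test over all 12766 genes tested. In all, 12 of 37 members tested (32.4%) were called, close to the 28.8% of all genes tested that were called, so the share of members called is not a result about them. By direction, 6 of 24 ER members tested were lower where 13.6% of all genes were, and 5 of 13 others were higher where 15.2% of all genes were. The median log2 fold change was -0.07 over the ER members, with 21 of 24 below 0, and 0.13 over the others, with 11 of 13 above 0, beside -0.0040 over all genes. No test of the difference between both lists was made.

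The counts by compartment depend on how libraries are scaled. Of all genes called, 52.8% were higher with the TMM factors used (the trimmed-mean scaling of edgeR), against 41.4% with upper-quartile factors and 32.4% with library totals alone, which moved the median of all genes to -0.05 and -0.09. With upper-quartile factors the ER median was -0.12 and the other 0.08; with library totals they were -0.16 and 0.04, so both kept their signs. A measure that no scaling can change is the share of the members' counts that came from ER members. It was 43.5%, 43.7% and 43.6% in control medium with LPS, against 46.8%, 46.0% and 46.0% in control medium. All libraries with LPS thus lay below all those without. Summed CPM of the ER members was 9322, 9129 and 9011 with LPS, against 9489, 9411 and 9355 without LPS. For the cytosolic and mitochondrial members the sum was 12100, 11776 and 11657 CPM with LPS, against 10767, 11039 and 10996 CPM without LPS. These sums are led by few abundant genes, and in bulk RNA fewer cells of a type and less RNA per cell cannot be told apart.

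**Figure D2:**
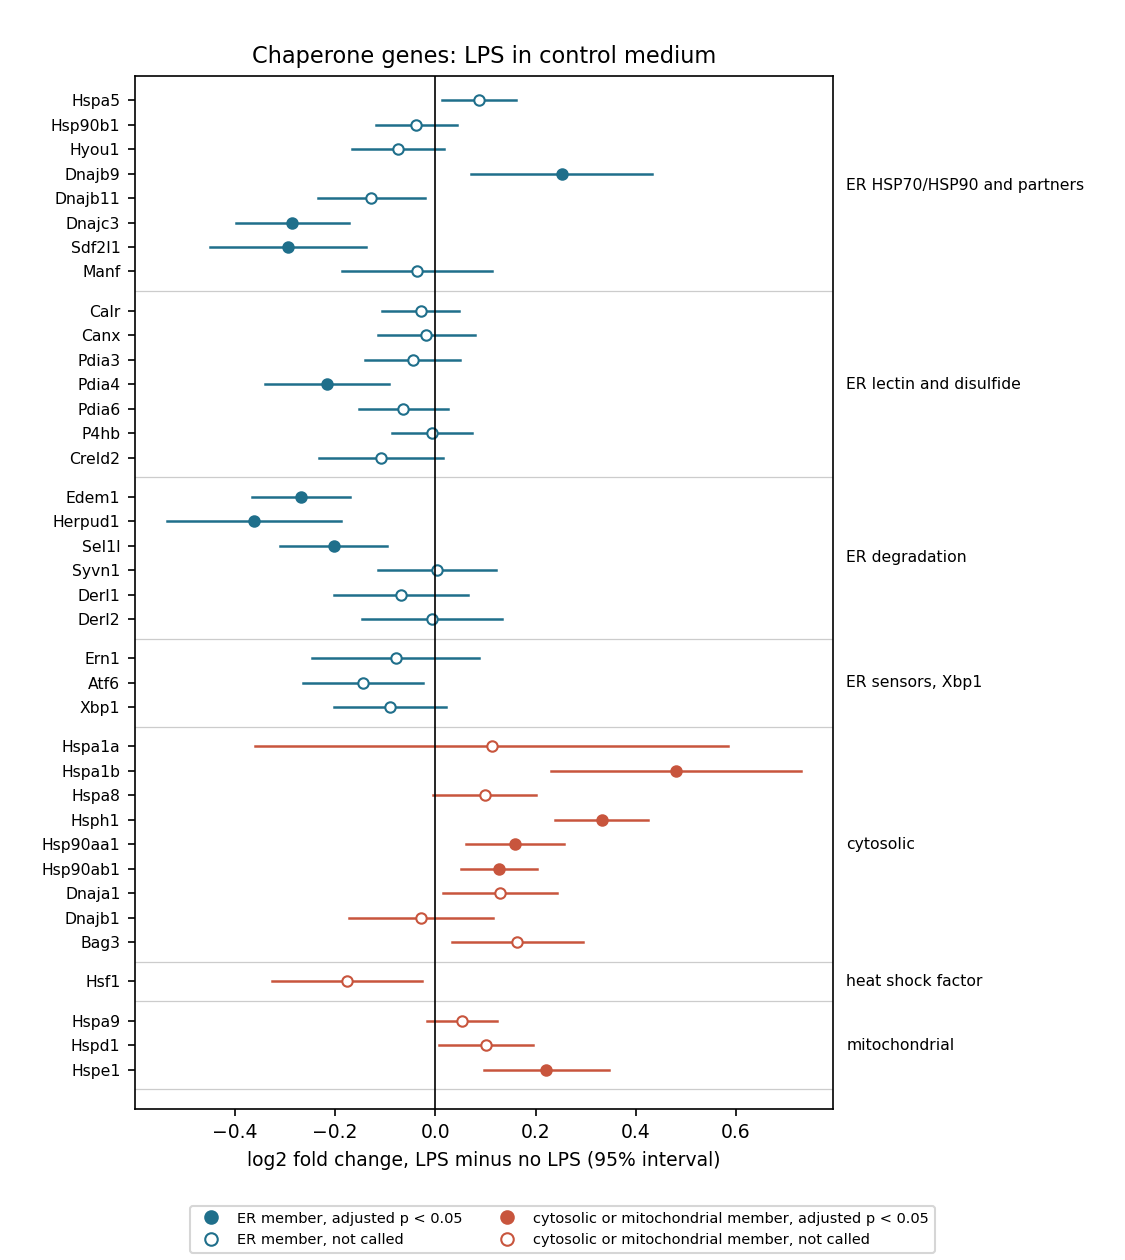
Log2 fold change of the 37 members tested, control medium with LPS minus control medium, by role; points are the edgeR estimates, lines their 95% intervals, and filled points passed an adjusted p of 0.05. ER members (blue) lie mostly left of 0, with Dnajb9 the filled exception, and cytosolic and mitochondrial members (red) mostly right of it, with Hsf1 and Dnajb1 left of it.

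**Figure D3:**
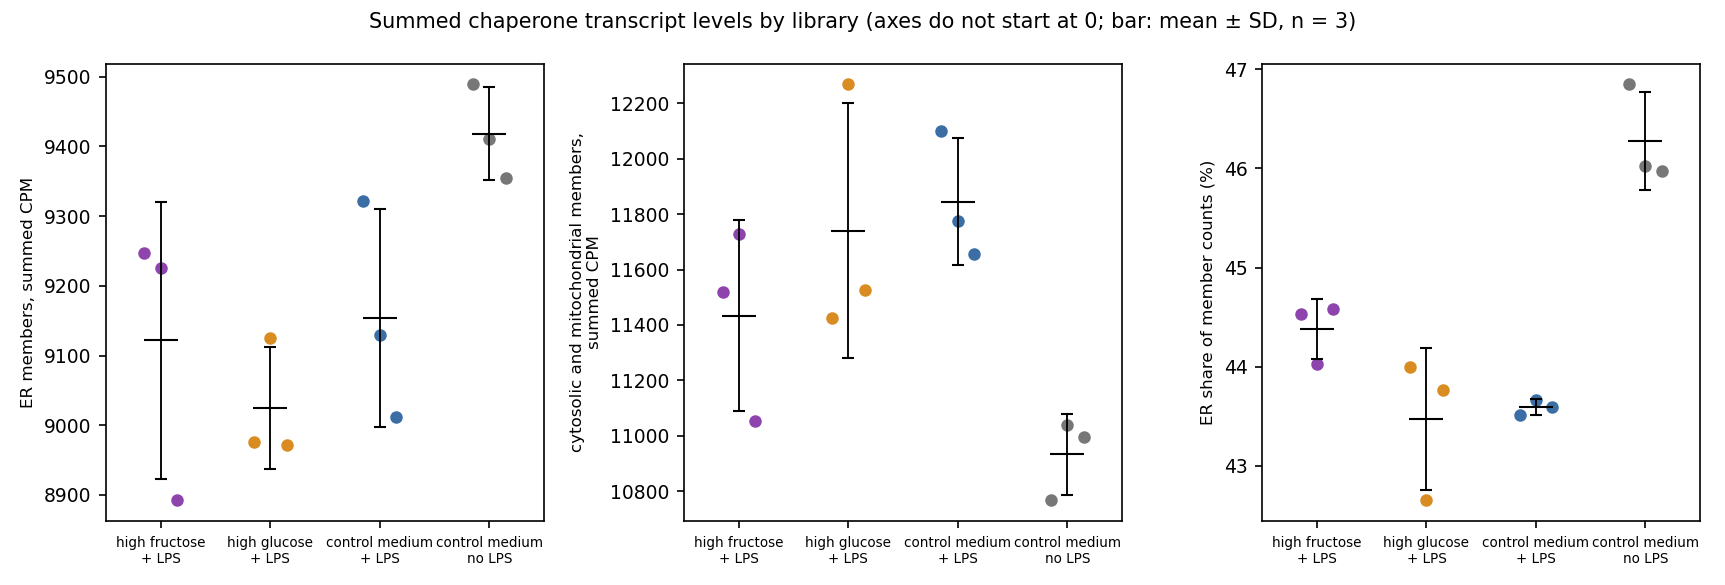
Summed CPM of the 25 ER members (left) and of the 13 cytosolic and mitochondrial members (middle), and the ER share of all member counts in percent (right), by library and group, with mean and SD (n = 3). The ER share lies between 42.7% and 44.6% in all 9 libraries with LPS and at 46.0% or above in the 3 without; the axes do not start at 0.

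Among the ER chaperones of the HSP70 and HSP90 kind, 2 of 8 fell and 1 rose. Dnajc3 encodes P58IPK, a luminal J-domain partner of BiP. It had 112, 110.0 and 118 CPM in control medium with LPS, against 134, 140.2 and 139.8 CPM in control medium. The groups did not overlap, and the log2 fold change was -0.29 ± 0.05 (SE; edgeR adjusted p = 0.000445). Sdf2l1, which assists ER HSP70 and the J-protein ERdj3, had 72.8, 68.2 and 70.0 CPM with LPS, against 89.0, 82.5 and 87.1 CPM without. It too was lower in every library with LPS, with a log2 fold change of -0.29 ± 0.07 (adjusted p = 0.00562). Dnajb9, encoding ERdj4, a J-protein known to be induced by XBP1 and to hold IRE1 in check, went the other way. It had 29.7, 29.7 and 27.2 CPM with LPS, against 21.8, 27.2 and 23.7 CPM without, a log2 fold change of 0.25 ± 0.09 (adjusted p = 0.0352). The groups did not overlap, but the lowest library with LPS and the highest without were both at 27.2 CPM. The call was the least firm of the 12: leaving out library 1 or 3 of control medium or library 1 or 2 with LPS gave adjusted p = 0.175, 0.117, 0.107 and 0.112, and it also lost the call with upper-quartile factors (adjusted p = 0.0773) and with library totals (0.157).

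BiP itself did not pass the test. Hspa5 averaged 1566 ± 30.9 CPM with LPS and 1474 ± 16.9 CPM without (SD, n = 3 each), a log2 fold change of 0.09 ± 0.03 (adjusted p = 0.0706) that became -0.0024 with library totals. It was called higher with only the 2 groups compared in the fit (0.0172) and with the replicate number as a block (0.0251). For GRP94 (Hsp90b1) the difference was -0.04 ± 0.04 (adjusted p = 0.516), with a 95% interval of -0.12 to 0.04. The remaining members of this group also did not pass: the nucleotide exchange factor Hyou1 at -0.07, the J-protein ERdj3 gene Dnajb11 at -0.13 and the ER-resident factor Manf at -0.04. With upper-quartile factors Hyou1 (adjusted p = 0.0365) and Dnajb11 (0.0145) were called lower. Library totals gave the same calls (0.00675 and 0.00238) and also called Hsp90b1 lower (0.015). Without strand information in the sources, 10.3% of the exonic bases of Hsp90b1 and 8.85% of those of Manf overlap genes on the other strand, whose reads cannot be told apart from theirs.

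Of the 7 lectin chaperones and disulfide enzymes, only Pdia4 passed. This isomerase, also known as ERp72, had 94.98, 92.0 and 90.4 CPM with LPS, against 114, 108 and 100.2 CPM without, with no overlap. Its log2 fold change was -0.22 ± 0.06 (adjusted p = 0.00943), and without library 1 of control medium the adjusted p was 0.0539. The abundant members of this group stood close to 0 and did not pass: calreticulin (Calr) at -0.03, calnexin (Canx) at -0.02, the glycoprotein isomerase Pdia3 at -0.05, Pdia6 at -0.06 and the isomerase P4hb at -0.01. For P4hb the 95% interval was -0.09 to 0.07, and for Canx -0.11 to 0.08. Creld2, an ER-stress-inducible protein with EGF-like domains, was at -0.11 ± 0.06 (adjusted p = 0.187). All 7 estimates were below 0 with TMM factors. With library totals, which moved the median of all genes to -0.09, edgeR called Calr (adjusted p = 0.0176), Pdia3 (0.0262), Pdia6 (0.00808) and Creld2 (0.0131) lower.

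ER-associated degradation held 3 of the 6 ER members that fell, out of 6 tested. Edem1, a lectin-like mannosidase that extracts misfolded glycoproteins, had 415, 422 and 393 CPM with LPS, against 475, 494 and 512 CPM without. All LPS libraries were lower, with a log2 fold change of -0.27 ± 0.05 (adjusted p = 0.0002), the smallest adjusted p among the ER members. Herpud1, a membrane protein that organises the ligase complex, had 37.7, 37.7 and 37.4 CPM with LPS, against 48.4, 47.9 and 48.8 CPM without. The libraries of each group lay close together and far from the other group, and the log2 fold change of -0.36 ± 0.08 (adjusted p = 0.00262) was the lowest of all members. Sel1l, the adaptor of the HRD1 ligase, had 155, 161 and 166 CPM with LPS, against 182, 186 and 187 CPM without, and did not overlap (log2 fold change -0.20 ± 0.05, adjusted p = 0.00531). The ligase HRD1 itself (Syvn1), at 0.00 ± 0.06, and the channel-forming derlins Derl1, at -0.07 ± 0.06, and Derl2, at -0.01 ± 0.07, did not pass.

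None of the 3 sensor and factor genes passed the test in edgeR, and limma and DESeq2 called 0 of them. In edgeR 1 of 3 had an unadjusted p below 0.05, beside 4836 of all 12766 genes tested. Atf6 was at -0.14 ± 0.06 (adjusted p = 0.0697), Xbp1 at -0.09 ± 0.05 (adjusted p = 0.229) and Ern1, which encodes IRE1, at -0.08 ± 0.08 (adjusted p = 0.512). With upper-quartile factors Atf6 was called lower (adjusted p = 0.0132). It was also called lower with library totals (0.00375) and with only the 2 groups compared in the fit (0.0399). Library totals called Xbp1 lower too (0.0116). Gene counts do not separate spliced from unspliced Xbp1, so the activity of this factor was not measured.

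In the cytosol, 4 of 9 chaperone genes rose. Hsph1, which encodes HSP110, the exchange factor of cytosolic HSP70, had 259.9, 255 and 254 CPM with LPS, against 205, 206 and 201 CPM without. The groups were far apart, with a log2 fold change of 0.33 ± 0.04 (adjusted p = 1.09e-05), the smallest adjusted p of all members. Hspa1b, a stress-inducible HSP70 gene, had 15.0, 14.9 and 14.3 CPM with LPS, against 9.74, 9.67 and 12.2 CPM without. Every LPS library was higher, with a log2 fold change of 0.48 ± 0.12 (adjusted p = 0.00465). Its neighbour Hspa1a lies 9951 bases away on the same strand of chromosome 17 and had 34 to 63 counts a library. Hspa1a was at 0.11 ± 0.22 (adjusted p = 0.763), an interval of -0.36 to 0.58. The pair share 78.5% of the Hspa1b transcript at 98% identity or more, so reads can be split between them, and 19.0% of the exonic bases of Hspa1a overlap a gene on the other strand. Summed, the pair were higher by 0.42 (adjusted p = 0.00476).

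Both cytosolic HSP90 genes rose by less. The inducible Hsp90aa1 had 1872, 1811 and 1812 CPM with LPS, against 1602, 1674 and 1644 CPM without (log2 fold change 0.16 ± 0.05, adjusted p = 0.0149). The constitutive Hsp90ab1 had 3441, 3457 and 3409 CPM with LPS, against 3029, 3209 and 3202 CPM without (log2 fold change 0.13 ± 0.04, adjusted p = 0.0126). Neither pair of groups overlapped, but both calls were close to the threshold. Hsp90aa1 lost its call without library 1 of control medium (adjusted p = 0.0662) and without library 1 with LPS (0.0576). Hsp90ab1 lost it without library 1 of control medium (0.0839) and without library 2 with LPS (0.0513). With upper-quartile factors the adjusted p was 0.0706 for Hsp90aa1 and 0.099 for Hsp90ab1, and with library totals 0.273 and 0.475. In limma Hsp90ab1 was not called either, with adjusted p = 0.0925 on log2(FPKM + 0.1) and 0.091 on log2(FPKM + 1). Hsp90aa1 shares 68.7% of its transcript with other genes, of which the closest, Gm12346, had 3853 counts over all libraries beside its 353487.

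Other cytosolic members did not pass. The constitutive HSP70 gene Hspa8 was at 0.10 ± 0.05 (adjusted p = 0.148), the J-protein Dnaja1 at 0.13 ± 0.05 (adjusted p = 0.086) and the HSP70 exchange factor Bag3 at 0.16 ± 0.06 (adjusted p = 0.0586). With only the 2 groups compared in the fit, edgeR called Hspa8 (0.0273), Dnaja1 (0.0347) and Bag3 (0.0244) higher. The replicate number as a block did so for Dnaja1 (0.0431) and Bag3 (0.0148). Dnajb1, the J-protein partner of inducible HSP70, was at -0.03 ± 0.07 (adjusted p = 0.808). The heat shock factor gene Hsf1 averaged 33.5 ± 1.01 CPM with LPS and 37.9 ± 2.20 CPM without (SD, n = 3 each), a log2 fold change of -0.18 ± 0.07 (adjusted p = 0.0748) that was called lower with upper-quartile factors (0.0235) and library totals (0.00727). Hspa8 shares 84.5% of its transcript with other genes, and 9.93% of the exonic bases of Dnaja1 lie opposite another gene.

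The mitochondrial chaperonin is built from HSP60 (Hspd1) and its lid HSP10 (Hspe1), and of these Hspe1 rose. Hspe1 had 181, 181 and 195 CPM with LPS, against 159, 157 and 162 CPM without, with no overlap (log2 fold change 0.22 ± 0.06, adjusted p = 0.00853). The call was lost without library 3 with LPS (adjusted p = 0.053) and with library totals (0.0947). Hspd1 was at 0.10 ± 0.04 (adjusted p = 0.101) and Hspa9 at 0.05 ± 0.03 (adjusted p = 0.266). In edgeR, Hspd1 was called higher with only the 2 groups compared in the fit (0.016) and with the replicate number as a block (0.0376). Both chaperonin genes share most of their transcript with other copies (81.0% for Hspe1 and 71.1% for Hspd1), and 7.6% of the exonic bases of Hspe1 lie opposite Hspd1.

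The LPS calls of members with and without the elements shown above stand side by side as a description, and no test between them was made. Of all genes tested, 15.2% were called higher and 13.6% lower with LPS. Of the 8 tested ER members with the ER stress response element, 1 fell (Dnajc3) and 0 rose, with a median log2 fold change of -0.03. Counting either ER element, 2 of 10 fell (Dnajc3 and Herpud1), with a median of -0.05. Of the 10 ER members whose promoter window held neither, 4 fell and 1 rose, with a median of -0.08. Of the 3 members with the heat shock element, Hsph1 and Hspe1 rose and Hspd1 did not pass, with a median of 0.22. Hspd1 and Hspe1 hold the same matched bases, and the Hspe1 call was lost with library totals. Of the 5 cytosolic and mitochondrial members whose window held no match, Hspa1b rose, with the highest log2 fold change of all members, and Hspa1a, Dnaja1, Dnajb1 and Bag3 did not pass, with a median of 0.13.

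**Figure D4:**
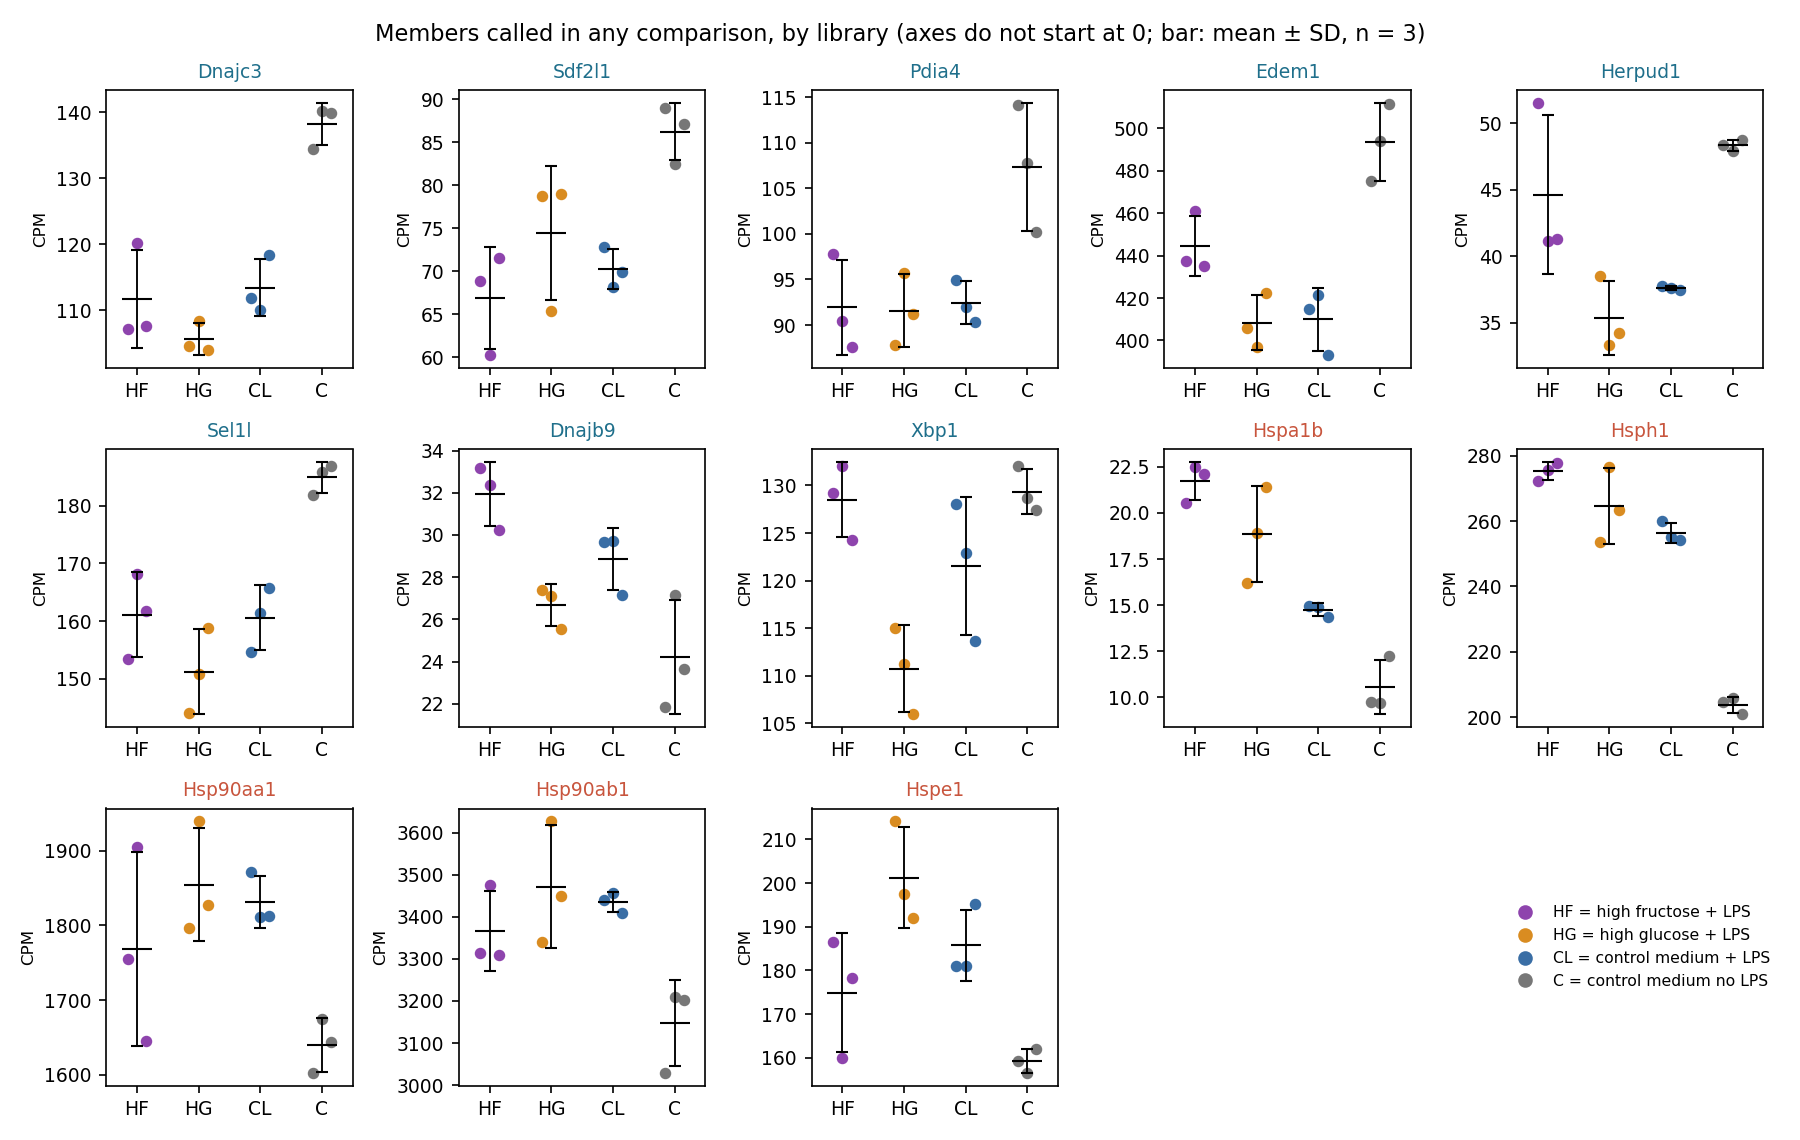
CPM of the 13 members called in any comparison, by library (points) with mean and SD (n = 3); HF is high fructose with LPS, HG high glucose with LPS, CL control medium with LPS and C control medium, blue names are ER members and red names the others, and the axes do not start at 0. Dnajc3, Sdf2l1, Pdia4, Edem1 and Sel1l are highest in the libraries without LPS, Hspa1b is highest in high fructose, and Herpud1 and Xbp1 are lower in high glucose than in high fructose.

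Other genes of the same pathways moved in both directions with LPS. Of 13 genes of the PERK and ATF6 arms and further ER stress genes, 5 rose and 1 fell. Wfs1, which encodes the ER membrane protein wolframin, averaged 22.4 ± 2.71 CPM with LPS and 12.6 ± 2.16 CPM without (log2 fold change 0.83 ± 0.12, adjusted p = 4.41e-05). Ppp1r15a, encoding GADD34, which directs the removal of phosphate from eIF2α, rose by 0.51 ± 0.09 (adjusted p = 0.000219), and the ER membrane protein gene Tmbim6 by 0.24 ± 0.05 (adjusted p = 0.000694). The PERK kinase gene Eif2ak3 was lower, at 31.9 ± 0.141 CPM with LPS and 39.8 ± 2.13 CPM without (log2 fold change -0.32 ± 0.08, adjusted p = 0.00621). The share called, 46.2%, stands beside the 28.8% of all genes, and the median of this list was 0.14, beside -0.07 for the ER members above.

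Among 18 further ER folding genes, 2 rose and 2 fell. Erp29, an isomerase relative, changed by -0.35 ± 0.07 (adjusted p = 0.000613), the isomerase gene Txndc5 by -0.19 ± 0.04, the J-protein gene Dnajc1 by 0.25 ± 0.07 and Ero1l, whose product reoxidises the isomerases, by 0.17 ± 0.05. Among 23 further degradation and translocation genes, 2 rose and 3 fell. As a list they did not fall: 14 estimates lay above 0 and 9 below, from -0.26 to 0.35. Their median was 0.013, beside -0.07 for the ER members, and the 2 genes that rose are not named here. The mannosidase-like genes Edem3, at -0.26 ± 0.07 (adjusted p = 0.0118), and Edem2, at -0.19 ± 0.06 (adjusted p = 0.0204), fell as Edem1 did, as did the translocon subunit gene Ssr1 at -0.17 ± 0.04 (adjusted p = 0.00615).

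Of 29 further cytosolic chaperone genes tested, 6 rose and 2 fell. Hspa4l, a relative of Hsph1 in the HSP110 family, averaged 182 ± 7.67 CPM with LPS and 98.2 ± 4.91 CPM without (log2 fold change 0.89 ± 0.06, adjusted p = 4.27e-09), more than any member. The chaperonin subunit gene Cct3 rose by 0.35 ± 0.04, the J-protein gene Dnajb4 by 0.39 ± 0.08 and Stip1, whose product links HSP70 with HSP90, by 0.18 ± 0.05. Of 11 further mitochondrial chaperones and proteases, the protease gene Afg3l2 (0.18 ± 0.04) and the HSP70 exchange factor Grpel1 (0.22 ± 0.07) rose and the J-protein gene Dnaja3 (-0.17 ± 0.05) fell. The shares called, 22.2%, 21.7%, 27.6% and 27.3% for these 4 lists, were all below the 28.8% of all genes.

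The second question was whether these genes differed in cells given LPS in raised glucose or fructose. Both sugars were set against the same 3 libraries of control medium with LPS, so these comparisons share them. High glucose with LPS changed 0 of 37 members at an adjusted p below 0.05 in edgeR, where 1.56% of all genes tested were called. DESeq2 and limma also called 0. Of all 12766 genes tested in edgeR, 1780 had an unadjusted p below 0.05, and so had 6 of the 37 members. Those were Hspa5 (-0.08 ± 0.03), Syvn1 (-0.20 ± 0.06), Xbp1 (-0.13 ± 0.05), Hspa8 (-0.16 ± 0.05), Hspa1b (0.35 ± 0.11) and Hspa1a (0.55 ± 0.22), as log2 fold changes with SE. Syvn1 had the smallest adjusted p, 0.0941, and its 95% interval was -0.32 to -0.08. Hspa8, the constitutive HSP70 gene, averaged 2139 ± 125 CPM in high glucose and 2395 ± 124 CPM in control medium with LPS (SD, n = 3 each; adjusted p = 0.122). In edgeR, Hspa8 was called lower without library 2 of high glucose (adjusted p = 0.0443). It was also called lower with no filter beyond 1 count in any library (0.00962) and with the replicate number as a block (0.0256). The median log2 fold change was -0.02 over ER members and 0.04 over the others, and the estimates of all members lay between -0.20 and 0.55.

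High fructose with LPS changed 1 of 37 members, 2.7%, where 4.91% of all genes were called. This was Hspa1b, with 20.5, 22.5 and 22.1 CPM in high fructose with LPS, against 15.0, 14.9 and 14.3 CPM in control medium with LPS. The groups lay well apart, with a log2 fold change of 0.56 ± 0.11 (adjusted p = 0.00503) and a 95% interval of 0.32 to 0.80. The call held in all 17 alternatives, the sum with Hspa1a among them (0.55, adjusted p = 0.00208). Hspa1a alone was at 0.51 ± 0.22 (adjusted p = 0.254). In high glucose with LPS, Hspa1b had 16.2, 18.9 and 21.4 CPM. These lay above all libraries of control medium with LPS and overlapped those of high fructose, and the gene did not pass (log2 fold change 0.35 ± 0.11, adjusted p = 0.155). High fructose set directly against high glucose gave 0.21 ± 0.11 (adjusted p = 0.397) with a 95% interval of -0.03 to 0.44, so a difference between the sugars was not shown for this gene.

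Other members in high fructose did not pass. The median log2 fold change was -0.02 over ER members and -0.0027 over the others. Herpud1 was at 0.25 ± 0.08 (adjusted p = 0.117), Edem1 at 0.12 ± 0.05 (adjusted p = 0.199), Hsph1 at 0.10 ± 0.04 (adjusted p = 0.254), Hspa8 at -0.13 ± 0.05 (adjusted p = 0.169) and Hspa5 at -0.08 ± 0.03 (adjusted p = 0.25). In edgeR with no filter beyond 1 count in any library, Hspa8 was called lower (adjusted p = 0.0467). Other genes moved with the high fructose group: of 4 LPS markers 3 were lower, with Rsad2 at 558 ± 43.1 CPM in high fructose and 1137 ± 73.5 CPM in control medium with LPS. Summed markers of other cells were 88.8 to 98.7 CPM in high fructose and 63.7 to 70.9 CPM in control medium with LPS, where 1 of 6 tested, Tubb3, was higher. Their part in the Hspa1b result was not tested.

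High fructose against high glucose, both with LPS, changed 2 of 37 members, 5.41%, where 3.72% of all genes were called. Both belong to the ER. Xbp1 had 129, 132 and 124 CPM in high fructose with LPS, against 115, 111 and 106 CPM in high glucose with LPS, with no overlap (log2 fold change 0.21 ± 0.05, adjusted p = 0.0297). Herpud1 had 51.5, 41.1 and 41.3 CPM in high fructose with LPS, against 38.5, 33.3 and 34.2 CPM in high glucose with LPS, where library 1 of high fructose was far above the other two (log2 fold change 0.34 ± 0.08, adjusted p = 0.0307). Neither passed the test against control medium with LPS in either sugar: Xbp1 was at 0.08 ± 0.05 in high fructose and -0.13 ± 0.05 in high glucose, and Herpud1 at 0.25 ± 0.08 and -0.09 ± 0.08. Both calls were lost when some single libraries were left out. Herpud1 had adjusted p = 0.159 and a log2 fold change of 0.22 without library 1 of high fructose, and lost its call without library 2 (0.133) or 3 (0.118) of high glucose. Xbp1 lost it without library 1 (0.0875) or 2 (0.104) of high fructose and library 2 (0.0854) or 3 (0.141) of high glucose, while its log2 fold change stayed at 0.18 to 0.24 in all 6 fits that left out a library of these groups. With only the 6 libraries of these groups in the fit, the adjusted p was 0.14 for Herpud1 and 0.0895 for Xbp1, with log2 fold changes of 0.34 and 0.22. Other genes moved in the same comparison: the LPS markers Rsad2 (-1.11 ± 0.08) and Cxcl10 (-1.30 ± 0.09) and the macrophage receptor gene Fcgr1 (-1.09 ± 0.09) were lower in high fructose, and Tubb3, a neuronal marker, was higher (1.07 ± 0.12). Their part in the calls of Xbp1 and Herpud1 was not tested.

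In this comparison 14 of 24 ER members lay above 0 and 10 below, with a median log2 fold change of 0.01. Those that did not pass had both signs. Above 0 were Dnajb9 at 0.26 ± 0.09 (adjusted p = 0.117), Syvn1 at 0.17 ± 0.06 (adjusted p = 0.109) and Edem1 at 0.12 ± 0.05 (adjusted p = 0.182). Below 0 were Creld2 (-0.15 ± 0.06, adjusted p = 0.202) and Hsp90b1 (-0.06 ± 0.04, adjusted p = 0.47). For Dnajb9, Syvn1, Edem1, Creld2 and Hsp90b1 alike, the libraries of high fructose did not overlap those of high glucose. Both chaperonin genes also lay below 0. Hspe1 had 186, 159.9 and 178 CPM in high fructose with LPS, against 214, 197 and 192 CPM in high glucose with LPS (log2 fold change -0.20 ± 0.06, adjusted p = 0.0732). It did not overlap and was called by DESeq2 (adjusted p = 0.0311). In edgeR it was also called with no filter beyond 1 count in any library (0.0201), with the replicate number as a block (0.0208) and without library 1 of high fructose (0.0402). Hspd1 was at -0.14 ± 0.04 (adjusted p = 0.111) and was called only with the replicate number as a block (0.03). The ER share of member counts was 44.5%, 44.0% and 44.6% in high fructose with LPS and 44.0%, 42.7% and 43.8% in high glucose with LPS.

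**Figure D5:**
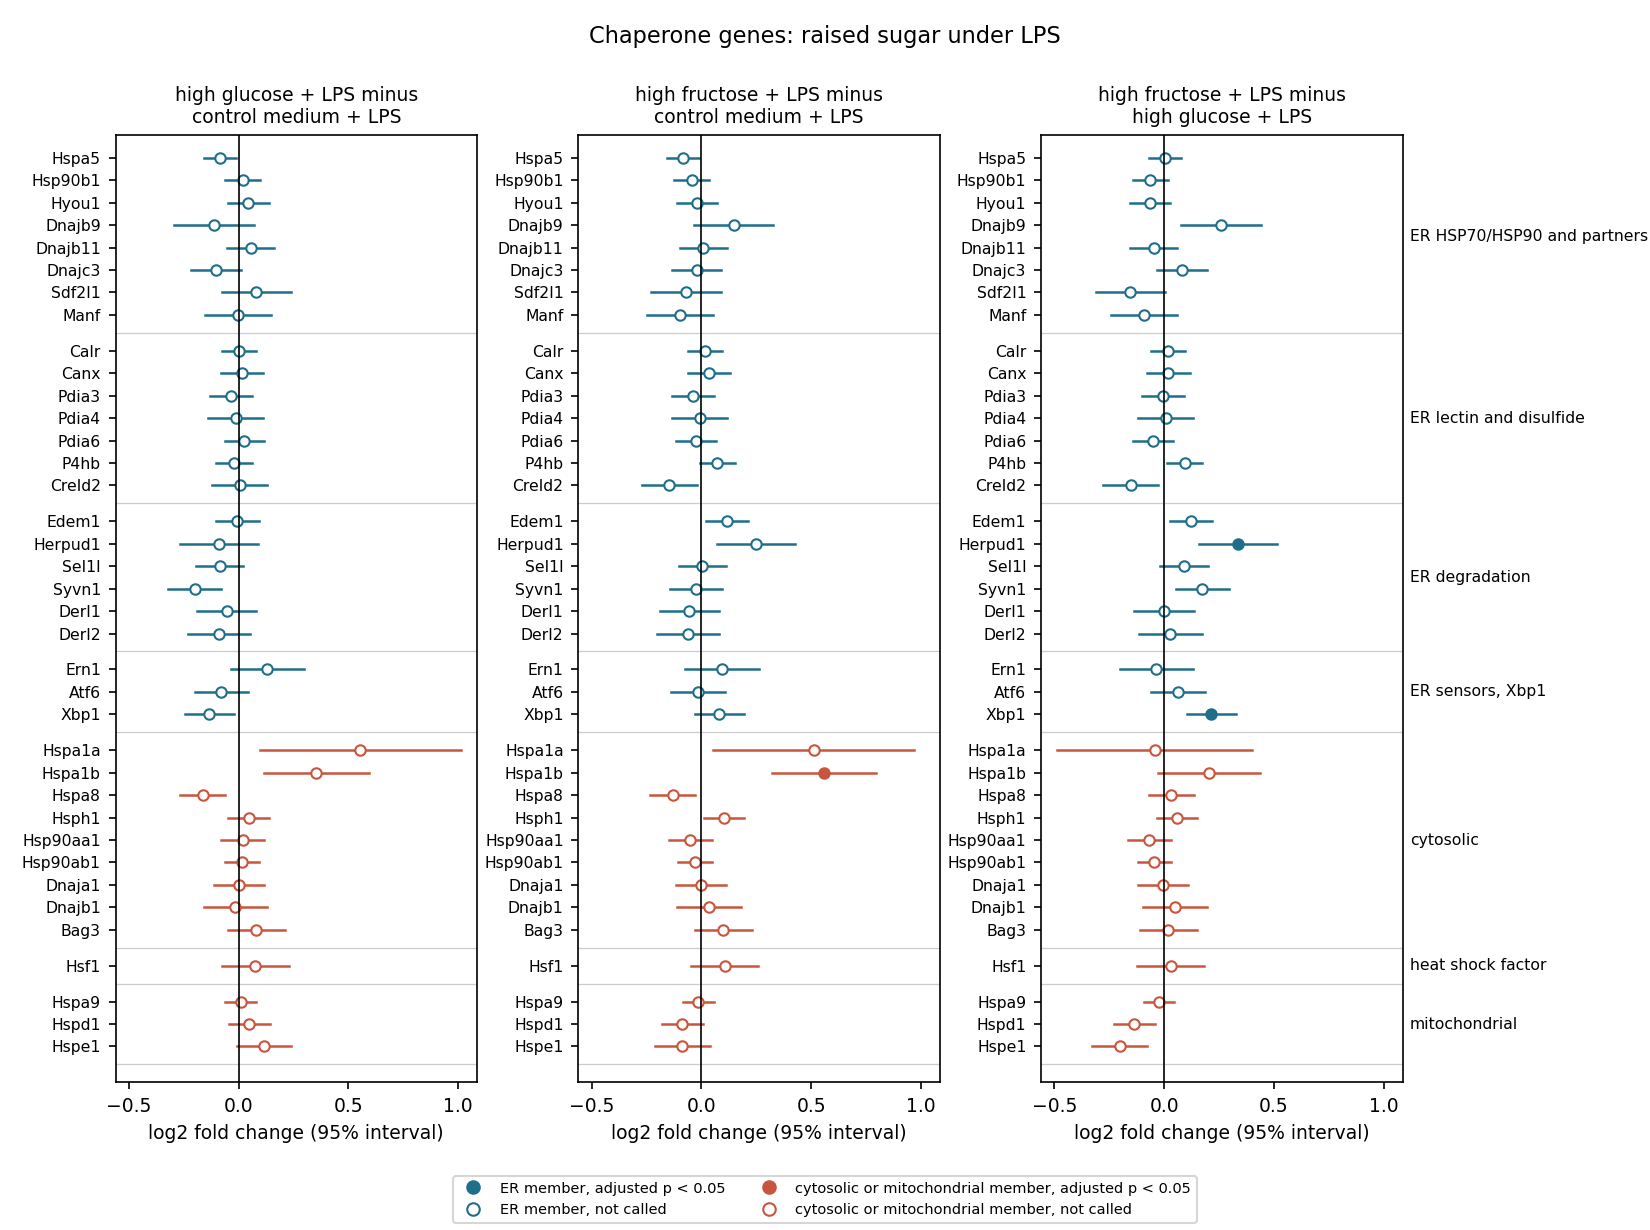
Log2 fold changes of the 37 members tested in the 3 comparisons of sugars under LPS (left, high glucose minus control medium; middle, high fructose minus control medium; right, high fructose minus high glucose); points are edgeR estimates, lines 95% intervals, and filled points passed an adjusted p of 0.05. Most points lie within their interval of 0, with Hspa1b filled in the middle panel and Herpud1 and Xbp1 filled in the right one.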

How the data were processed

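The authors deposited whole-number read counts per gene and FPKM values of the same genes for 12 libraries. Counting used featureCounts 1.5.0-p3 on build mm10, per the submitters' processing notes; their aligner, annotation release and strand setting were not given in the sources used here. The FPKM values equalled the deposited counts divided by gene length and a constant per library, within 1.75e-07%, for genes with 200 counts or more. Columns were matched to groups by their sample titles.

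The tests used the edgeR package, version 4.0.16 (R 4.3.3): filterByExpr (minimum count 10) left 12766 of 54532 genes, TMM factors scaled the libraries, and 1 quasi-likelihood fit of all 12 libraries with a coefficient per group gave 4 contrasts. P-values were adjusted over all genes tested by Benjamini-Hochberg, with calls at 0.05. SE is the log2 fold change divided by the signed root of its F value, and 95% intervals use the total degrees of freedom of that test. DESeq2 1.42.0 and limma 3.58.1 on log2(FPKM + 0.1) or log2(FPKM + 1) were alternatives. Sums over the members get no test. The scripts were tested on simulated data. All 38 members are named, with values of every library for those called in any comparison and up to 4 called genes of each further pathway list, by smallest adjusted p; some genes of these and the marker lists are not reported here. The members and lists were chosen with earlier results of these data known.

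Promoters came from RefSeq (GRCm38.p6). Shared transcript sequence was sought with BLAST 2.17.0+ in GENCODE M21 (98% identity over 75 bases or more), and overlapping exons in the same annotation. Libraries of a group differed by more than counting error (chi-square per degree of freedom of 3.57 or more), so none was merged as a repeat of another; this does not show separate cultures. Totals were 15453776 to 17956772 counts a library, and no columns were left unmapped.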

Additional observations from a re-analysis of the deposited data

How the results depend on the processing

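No member's log2 fold change changed direction where it was called: of 2368 values of single members under alternatives, 2300 stayed on the same side of the threshold, 31 lost a call and 37 gained one. The LPS counts depended on scaling. With upper-quartile factors 0 ER members were higher, and of the cytosolic and mitochondrial members 3 were higher and 1 lower, with medians of -0.12 and 0.079. With library totals 15 ER members were lower and 0 higher, 2 of the others were higher and 1 lower, and the medians were -0.16 and 0.037. Calls with LPS over all 12766 genes tested moved too: 3677 with TMM factors, 3914 with upper-quartile factors and 4363 with library totals. Of these, 52.8%, 41.4% and 32.4% were higher. With no filter beyond 1 count in any library, 0 ER members were higher with LPS, 1 member was called in high glucose and 2 in high fructose. Of all 24558 genes then tested, 427 were called in high glucose and 810 in high fructose. Fitting the 2 groups compared alone called 19 members with LPS (ER higher 2, others higher 9) and 0 between the sugars. Over all genes, such fits called 4221 of 12296 with LPS and 247 of 12300 between the sugars. With either pseudocount, limma on FPKM called 1 member between the sugars, and 405 or 438 of all 12766 genes.

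Leaving out 1 library at a time gave 0 to 1 ER members higher and 0 to 1 of the others lower with LPS, 0 to 1 members called in high glucose and 0 to 2 between the sugars. Under it the median of the cytosolic and mitochondrial members was 0.0043 to 0.055 in high glucose and -0.022 to 0.054 in high fructose, and the ER median was -0.025 to 0.0030 in high fructose and -0.014 to 0.041 between the sugars. A lone missing library leaves 2 in its group, whose spread is pooled with the other groups.

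Same-numbered libraries correlated at -0.19 to 0.12 after group means were removed. With 3 libraries a group, these correlations can neither show nor exclude that the replicate numbers pair the libraries. With the replicate number as a block, 2 ER members and 8 of the others were higher with LPS, 1 member (Hspa8) was called in high glucose and 4 between the sugars. Calls over all genes also rose with the block, from 3677 to 4149 with LPS and from 199 to 391 in high glucose. They rose from 627 to 847 in high fructose and from 475 to 735 between the sugars. Depth limits Derl3 (0 to 12 counts) and Hspa1a (34 to 63 counts); the causes of these changes were not tested.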
